A study of Mus musculus with 10 samples.

Results

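The baseline transcriptome of the normal mouse liver was described from the 4 libraries of normal liver among the 10 libraries of the series, chosen by their sample titles. The livers came from wild-type mice of the inbred strain FVB and the labels give them the genotype WT and no treatment. The protocol text shared by all samples describes hydrodynamic tail vein injection, by which the tumours were made, and does not say whether normal livers were sham-injected. The other 6 libraries are tumours raised with Akt and Nras, with or without Foxo1AAA, and were not compared here. The labels give no sex, age, feeding state or time of day for the animals, and they do not say that the livers came from separate mice. Every value is FPKM, the number of reads on a gene per kilobase of its length scaled by the depth of the library, as deposited by the authors. An SD is the spread between these 4 samples (n = 4 throughout), part of which may be technical. The depth behind them was 17.53, 14.27, 14.82 and 13.59 M reads on genes in livers 1 to 4, recovered from the FPKM and the gene lengths.

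The liver makes most of the proteins of blood plasma, packages fat into lipoproteins, stores and releases glucose, turns ammonia into urea, makes bile acids and detoxifies drugs. Hepatocytes do nearly all of this work, and they share the organ with Kupffer cells, which are its resident macrophages, with sinusoidal endothelium, with fat- and vitamin A-storing stellate cells and with bile duct cells. The tissue label was first set against marker genes. All 6 hepatocyte markers, namely Alb, Apoa1, Ttr, Cyp2e1, Serpina1a and Cps1, averaged 739 FPKM or more, and together they summed to 74334, 73759, 72418 and 76928 FPKM in livers 1 to 4. Summed markers of other liver cells lay far lower, at 73.9 to 134 FPKM for 5 Kupffer cell genes, 35.4 to 43.1 FPKM for 5 stellate cell genes and 26.7 to 35.7 FPKM for 5 endothelial genes. Of 6 bile duct markers Spp1 and Epcam averaged 1 FPKM or more, and each of 5 lymphocyte markers averaged less than that. Neighbouring organs left little trace: the pancreatic genes Pnlip, Cpa1, Prss1 and Amy2a5 were at 0 in all 4 livers, while Cela1, an elastase gene from the same list, stood at 36.2 ± 4.24 FPKM. The fat cell genes Adipoq and Lep, the muscle gene Myl1 and the gut defensin gene Defa24 were also at 0. In bulk tissue, fewer cells of a type and less RNA per cell cannot be told apart.

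Few genes held most of the signal. Summed FPKM was used as the whole, and each gene's share of it was averaged over the livers. Of 56748 genes listed, 33656 were at 0 in all 4 livers and 10027, of which 9076 code for protein, reached 1 FPKM in each. On the mean share, 7 genes made up 25% of the signal, 45 made up 50%, 397 made up 75% and 1750 made up 90%. In single livers 50% of the signal took 45, 38, 48 and 46 genes, so liver 2 was the most concentrated. Counted in reads, which favour long genes where FPKM does not, 50% took 140 genes. The 83 genes above 1000 FPKM held 57.0%, whereas 6837 genes between 1 and 10 FPKM held 3.72%. The 10 most abundant genes held 30.26% ± 1.36 and 9 of them were among the first 10 in every liver.

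**Figure D1:**
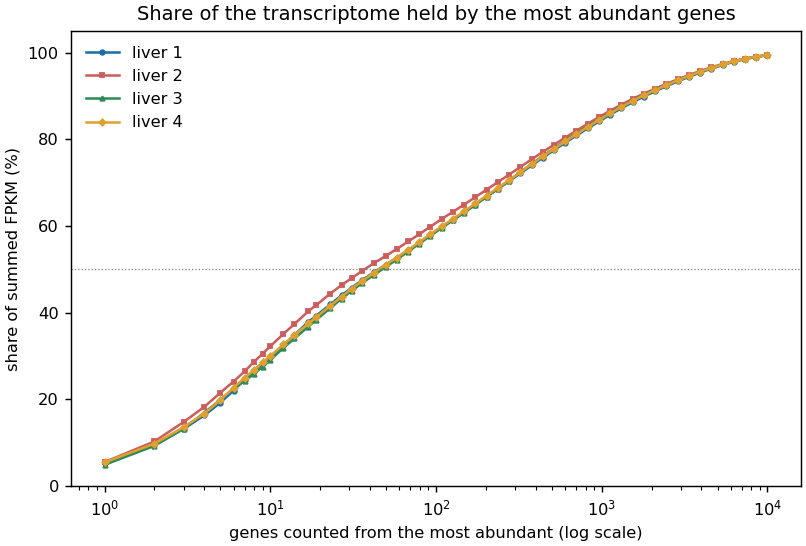
Cumulative share of summed FPKM (y axis, %) against the number of genes counted from the most abundant in that liver (x axis, log scale), 1 line per liver. The dotted line at 50% is crossed after 38 genes in liver 2 and after 45 to 48 genes in the other livers.

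Albumin, the main protein of plasma, led in every liver. Alb stood at 37040.0, 40701, 35055 and 38305 FPKM in livers 1 to 4, a share of 5.27% ± 0.285. Apoa2, an apolipoprotein of high-density lipoprotein, came second with 28931, 33344, 31745 and 30801 FPKM and a share of 4.35% ± 0.128. These 2 genes varied little, with a coefficient of variation (CV, the SD divided by the mean) of 6.26% and 5.91%. The third was mt-Co1, the mitochondrially encoded first subunit of cytochrome c oxidase, at 25065, 35506, 27019 and 22387 FPKM. It was highest in liver 2 and lowest in liver 4. Rn18s-rs5, a copy of the 18S ribosomal RNA gene, followed with 21601, 25994, 28338 and 26896 FPKM. It was lowest in liver 1. That RNA carries no polyA tail, and the labels do not say whether polyA capture or removal of rRNA was used for these libraries, so its share of 3.58% includes whatever rRNA that step left behind.

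The next places belonged to lipid and pheromone carriers. Apoa1, the main protein of high-density lipoprotein, read 20440.4, 16841, 21423 and 21939.6 FPKM, with liver 2 below the others. Apoe, which returns lipoprotein remnants to the liver, varied less, at 19116, 19199, 18849.6 and 20077 FPKM. Fabp1, the carrier of fatty acids inside the hepatocyte, stood at 11700.2, 12408, 11206 and 12815 FPKM, a CV of 5.97%. Among the first 25 were also the mitochondrial genes mt-Cytb, mt-Nd1, mt-Nd2, mt-Nd4, mt-Nd5 and mt-Nd6, and Mup12, Mup3 and Mup7 of the major urinary proteins. Plasma carriers filled much of the rest, with Trf for iron (8468 ± 513 FPKM), Ttr for thyroid hormone, Rbp4 for retinol (5419 ± 201 FPKM) and Gc for vitamin D (4836 ± 89.8 FPKM). Hamp, whose product hepcidin limits iron uptake, averaged 4856 ± 623 FPKM, and Cyp2e1, an ethanol-oxidising cytochrome, 6616 ± 495 FPKM. Ahsg, Apoc1 and Serpina3k completed the group.

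The DNA just upstream of the start is shown for 8 abundant genes that hold one of the motifs described next, because promoters of highly expressed liver genes are known for a TATA box near the start and for the letters GTTAAT. Sequences are from RefSeq on GRCm38.p6, the 60 bases before the annotated start, read 5′ to 3′ on the gene's strand. Capitals mark the TATA box letters TATAAA, their variant form TATATAA, or the motif GTTAAT. A match of letters does not show that a factor binds there, and the sequence of the FVB strain was not examined.
Alb: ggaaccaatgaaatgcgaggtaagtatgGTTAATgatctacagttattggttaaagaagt
Gc: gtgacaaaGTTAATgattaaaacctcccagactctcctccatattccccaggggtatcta
Fabp1: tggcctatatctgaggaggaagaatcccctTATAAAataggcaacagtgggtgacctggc
Cyp2e1: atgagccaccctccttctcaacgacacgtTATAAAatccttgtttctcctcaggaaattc
Hpx: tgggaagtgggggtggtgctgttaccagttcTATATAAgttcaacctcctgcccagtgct
Mup3: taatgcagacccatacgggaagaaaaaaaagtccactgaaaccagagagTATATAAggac
Mup15: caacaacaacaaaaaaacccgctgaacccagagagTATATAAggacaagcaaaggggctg
Mup19: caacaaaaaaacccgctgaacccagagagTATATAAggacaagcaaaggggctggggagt
These stretches lie at chr5:90460810-90460869 on the plus strand (Alb), chr5:89457899-89457958 on the minus strand (Gc), chr6:71199819-71199878 on the plus strand (Fabp1) and chr7:140763759-140763818 on the plus strand (Cyp2e1), at chr7:105600117-105600176 on the minus strand (Hpx, the haem scavenger hemopexin), and at chr4:62087318-62087377 on the minus strand (Mup3), chr4:61439705-61439764 on the minus strand (Mup15) and chr4:61782225-61782284 on the minus strand (Mup19). Alb and its paralog Gc, which bind fatty acids and vitamin D in plasma, both carried GTTAAT, 32 and 52 bases before the start. Fabp1 and Cyp2e1 carried TATAAA 30 and 31 bases before it, and Hpx carried TATATAA at 29. In the Mup genes the same letters lay 11, 25 and 31 bases before the annotated starts, and the stretches of Mup15 and Mup19 were identical over all 54 bases at which they could be aligned.

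The motifs were then counted across RefSeq promoters, as a description, with a gene taken to hold a motif if any of its entries did. TATAAA, or its variant TATATAA, on the gene's strand, starting 15 to 40 bases before the start and counted once where both overlapped, was present in 15 of the 71 genes with an entry (21.1%) among the 100 most abundant nuclear protein-coding genes. Over all 27025 symbols the share was 3.02%, and it was 1.39% of 4671 genes between 1 and 10 FPKM and 5.41% of 9034 genes under 1 FPKM. GTTAAT on either strand within 250 bases upstream was present in 13 of the 71 (18.3%), against 7.49% of all symbols, 4.50% of genes between 1 and 10 FPKM and 8.003% of genes under 1 FPKM. CCAAT, a common promoter element, on either strand differed less, with 43.7% of the 71 and 37.5% of all symbols. Some genes had more than 1 entry. Among genes with a single one the TATA letters were found in 11 of 61 abundant genes (18.03%) and in 3.03% of 22862 symbols.

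Families were formed by gene symbol, 23 in all, so that each gene counted once. Mitochondrially encoded genes and apolipoproteins were level at the top, with 11.9% ± 1.6 and 11.8% ± 0.427 of summed FPKM. Below them came plasma carriers and acute phase proteins (7.34% ± 0.376), major urinary proteins (6.46% ± 0.242) and albumin with its paralogs (5.97% ± 0.284). The families of secreted plasma and urinary proteins together held 36.2% ± 0.897, and 6 genes made up 50% of that. Counted in reads the order changed: mitochondrially encoded genes fell to 6.54%, apolipoproteins to 6.77% and major urinary proteins to 2.95%, whereas albumin with its paralogs stood at 6.34% and plasma carriers at 7.04%. All genes outside the named families held 29.5% ± 0.668.

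**Figure D2:**
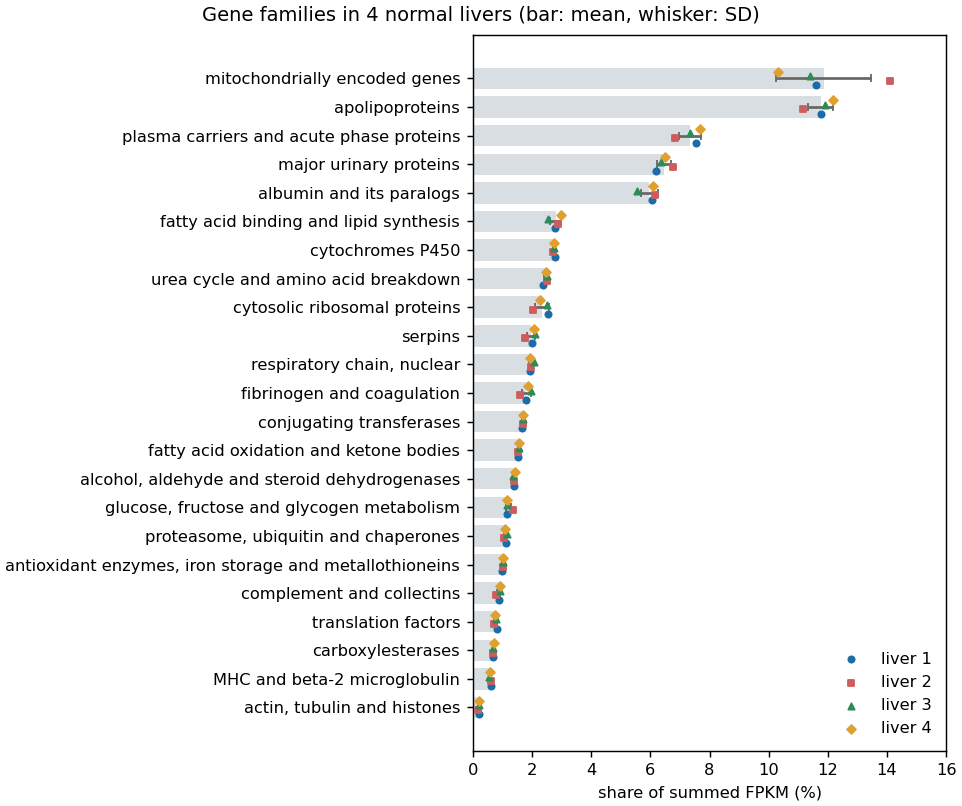
Share of summed FPKM (x axis, %) of 23 gene families (y axis). Bars are means over 4 livers, whiskers are SDs and points are single livers. The mitochondrially encoded genes span 10.3% in liver 4 to 14.1% in liver 2, and the cytochromes P450 only 2.70% to 2.79%.

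Lipoprotein genes were dominated by a few members. Of the apolipoprotein signal Apoa2 made up 37.0%, Apoa1 24.0% and Apoe 22.9%. Apoc1 and Apoc3, which slow the clearance of triglyceride-rich particles, followed at 4742 ± 267 FPKM and 3431 ± 156 FPKM. The family's share was 11.8, 11.2, 11.9 and 12.2% in livers 1 to 4, lowest in liver 2.

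The mitochondrial genome encodes subunits of the respiratory chain with the RNAs to translate them. It held 11.6, 14.1, 11.4 and 10.3% in livers 1 to 4, so liver 2 was highest. The genes mt-Co1, mt-Cytb and mt-Nd1 together made up 62.4% of it. Nuclear respiratory chain genes, which supply the other subunits, showed no such excess in liver 2: their share was 1.93, 1.96, 2.06 and 1.94%, led by Cox6a1 and Cox8a. Shares sum to a whole, so a high mitochondrial share lowers the rest. With mitochondrially encoded genes left out of the total, apolipoproteins and plasma carriers were still lowest in liver 2, whereas the liver with the lowest share of cytochromes P450 changed from liver 2 to liver 4.

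Metabolic families each took 1% to 3%. Fatty acid binding and lipid synthesis held 2.8% ± 0.185, of which Fabp1 alone made up 60.1%. Cytochromes P450, the oxidases of drugs and steroids, held 2.75% ± 0.0376, led by Cyp2e1 (33.7% of the family), Cyp2c29 (1392 ± 127 FPKM), Cyp1a2 (1179 ± 77.5 FPKM) and Cyp2d10 (1119.5 ± 106 FPKM). Urea cycle and amino acid breakdown held 2.47% ± 0.0648 with no dominant member: Gnmt, which uses up spare methyl groups, stood at 1769 ± 198 FPKM, Ass1 of the urea cycle at 1443 ± 87.1 FPKM and the tyrosine-degrading Hpd at 1441 ± 25 FPKM. Glucose, fructose and glycogen genes held 1.14, 1.35, 1.17 and 1.17% in livers 1 to 4. Liver 2 stood above the rest there. Pck1, the first enzyme of gluconeogenesis, was among its leading members at 1117 ± 177 FPKM.

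The families of conjugation, antioxidant defence and fatty acid oxidation kept an even share. Conjugating transferases, which attach glutathione, glucuronate or sulphate to drugs, held 1.69% ± 0.0193 and were led by Gstp3, Mgst1 and Gstm1. Antioxidant enzymes with ferritins and metallothioneins held 1.012% ± 0.00974, led by the ferritin light chain Ftl1 (2298 ± 129 FPKM) and by catalase, Cat (1509 ± 131 FPKM). Fatty acid oxidation and ketone body genes held 1.54% ± 0.0198, led by Phyh, Scp2 and Acaa2. With mitochondrially encoded genes left out of the total these families held 1.92% ± 0.0479, 1.15% ± 0.0279 and 1.75% ± 0.0195, in that order. Liver 2 was then highest in each, so part of the evenness of the first and second came from the mitochondrial share. Families of translation and plasma proteins varied more. Cytosolic ribosomal proteins held 2.54, 2.03, 2.5 and 2.28% in livers 1 to 4, lowest in liver 2, with Rplp1 at the head. Fibrinogen and coagulation genes held 1.8% ± 0.152, led by Vtn and by Fgg, Fgb and Fga, the 3 chains of fibrinogen. Serpins, which inhibit proteases in plasma, held 1.98% ± 0.139, and complement with the collectins held 0.874% ± 0.0563, 27.6% of it C3.

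The remaining families held 1.39% or less each. Dehydrogenases of alcohols, aldehydes and steroids held 1.38, 1.38, 1.37 and 1.42%, highest in liver 4. With mitochondrially encoded genes left out of the total liver 2 was highest instead, at 1.60% against 1.58% in liver 4. Adh1, the main alcohol dehydrogenase of liver, averaged 1303 ± 70.1 FPKM. Translation factors held 0.762% ± 0.0442, 42.3% of it Eef1a1, which brings transfer RNA to the ribosome. Proteasome, ubiquitin and chaperone genes held 1.1% ± 0.0397, led by P4hb (629 ± 37.4 FPKM) and Hsp90ab1 (451 ± 21.5 FPKM). Carboxylesterases held 0.681% ± 0.0138, led by Ces3a (1323 ± 70.7 FPKM) and Ces1c. MHC genes with B2m, the shared light chain of class I molecules, held 0.589% ± 0.0296, 65.1% of it B2m. Actin, tubulin and histone genes, often used as a reference in other tissues, held 0.201% ± 0.0167, with Actb at 201 ± 11.6 FPKM.

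By biotype, protein-coding genes held 91.9% ± 0.46 and ribosomal RNA 3.58% ± 0.355, all but a trace of it Rn18s-rs5. Processed pseudogenes, which are reverse-transcribed gene copies, held 1.98% ± 0.0953 over 593 genes of at least 1 FPKM. Rpl34-ps1 led them at 591 ± 52.1 FPKM. Long non-coding RNAs held 0.487% ± 0.0362 over 475 such genes. The most abundant, H19, made up 7.95% of that. Mitochondrial transfer RNAs held 0.655% ± 0.107, and the gene for proline transfer RNA, mt-Tp, made up 57.9% of it, at 2179.7, 3083, 3371 and 2269.7 FPKM.

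FPKM divide by length, which lifts short genes. The mt-Tp gene has 67 bases and ranked 31 by FPKM but 1116 by reads. The same holds for the microRNA class (0.146% ± 0.00853), 75.2% of which came from 1 gene of 57 bases with no symbol, ENSMUSG00002076173, at rank 103 by FPKM and 3893 by reads. Reads of longer overlapping transcripts can be counted on such genes. Unprocessed pseudogenes held 0.591% ± 0.105 and were led by Gm28437 at 1495, 1009.9, 726 and 633 FPKM. It lies on chromosome 1, in a stretch of mitochondrial DNA copied into the nuclear genome, as do Gm10925 and Gm29216, which also stood among the 10 most abundant non-coding genes. Gm28437 was highest in liver 1 and lowest in liver 4, and mitochondrial reads can be assigned to such copies.

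Transcription factors, marked as such in the deposited table, held 0.852% ± 0.0270 of the signal over 1525 genes. Those of the hepatocyte programme led. Cebpa, a factor of liver metabolism, stood at 474, 435, 433 and 486 FPKM, a CV of 5.94%. Its relative Cebpb, which also serves the acute phase response, read 243, 220.3, 352 and 244 FPKM and was highest in liver 3. Hnf4a, the nuclear receptor needed for hepatocyte identity, stood at 154, 156, 182 and 175 FPKM. The pioneer factors Foxa3, Foxa2 and Foxa1 averaged 36 ± 7.03 FPKM, 26.7 ± 8.64 FPKM and 11 ± 2.91 FPKM, in that order. Among receptors for bile acids, drugs and lipids, Rxra, the shared partner, led with 106 ± 7.99 FPKM, ahead of the bile acid receptor Nr1h4 (63.1 ± 3.35 FPKM) and the oxysterol receptor Nr1h3 (62.4 ± 3.69 FPKM), which did not differ beyond their spread.

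Where several genes encode enzymes for 1 reaction, the liver form held nearly all of the FPKM of its set. Gys2 made up 99.4% ± 0.0354 of the glycogen synthases and Pygl 96.4% ± 0.773 of the glycogen phosphorylases. Arg1, the arginase of the urea cycle, made up 99.99% of the arginases, Fbp1 99.98% of the fructose bisphosphatases and Cpt1a 99.6% ± 0.0696 of the mitochondrial fatty acid importers. Scd1 made up 99.2% ± 0.799 of the stearoyl-CoA desaturases, and the glutamine-degrading Gls2 99.5% ± 0.197 of the glutaminases. Mat1a, which makes the methyl donor S-adenosylmethionine, made up 97.3% ± 0.157 of its set.

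Other sets were mixed. Pklr, the liver pyruvate kinase, made up 92.6% ± 3.85, and its level was 85.9, 122, 90.1 and 97.7 FPKM while that of Pkm, the form of most other tissues, was 12.3, 4.39, 7.61 and 6.01 FPKM. Liver 2 was highest for Pklr and lowest for Pkm, and liver 1 was the reverse. The glucose transporter Slc2a2 made up 72% ± 1.39 of its set and Pfkl 67.2% ± 3.21 of the phosphofructokinases. Ldha made up 81.6% ± 2.77 of the lactate dehydrogenases listed. Most of the rest was Ldhd, the form for D-lactate, at 57.3 ± 4.06 FPKM. Ldha averaged 273 ± 44.4 FPKM and Ldhb, which shares its reaction, 3.26 ± 0.505 FPKM. That set was therefore mixed chiefly through Ldhd, and Ldha far exceeded Ldhb. The acetyl-CoA carboxylase Acacb made up 71.4% ± 3.72 and Acaca 28.6% ± 3.72. Of the enolases Eno1b and Eno1, near-identical copies between which reads can be split, read 110.1 ± 8.24 FPKM and 92.8 ± 5.47 FPKM. Among the insulin-like growth factor binding proteins Igfbp4 made up 64% ± 2.67 and Igfbp2 29.4% ± 2.67.

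The genes that the tumour models of the series act on were expressed at modest, even levels. AKT kinases pass on insulin and growth signals. Akt2 stood at 26.3, 27.6, 27.8 and 26.5 FPKM and Akt1 at 21.6, 20.6, 20.9 and 21.5 FPKM, so that the livers did not overlap between the genes. Of the RAS genes, GTPases of growth factor signalling, Hras read 19.7, 19.4, 21 and 20.6 FPKM, above Nras at 5.56, 5.42, 4.84 and 5.51 FPKM. The FoxO factors are transcription factors that AKT switches off. Foxo4 averaged 14.8 ± 1.29 FPKM, Foxo3 12.1 ± 1.03 FPKM and Foxo1 7.18 ± 0.572 FPKM, each liver keeping that order. Gsk3a, a kinase that AKT inhibits, made up 77.7% ± 3.52 of the GSK3 pair.

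Agreement between livers was described in the 4123 genes with a mean of at least 10 FPKM. Their median CV was 7.61%, and counting error alone gave a median of 3.40%. In 116 genes (2.81%) the highest liver was at least 2 times the lowest, and 78 of these were protein coding. Without liver 2 the count was 74 and without liver 3 it was 73. Spread was wider in long non-coding RNAs, with a median CV of 15.54% and 6 of 53 genes past that range. Between pairs of livers 31 to 56 genes differed 2-fold or more, fewest between livers 1 and 4 and most between livers 1 and 2, and the median log2 difference over all genes was at most 0.04 in size. Counting error shrank as level rose, whereas the spread between livers changed little: the median CV was 8.10% from 10 to 30 FPKM and still 7.34% in the 83 genes above 1000 FPKM, where counting gave 0.518%.

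**Figure D3:**
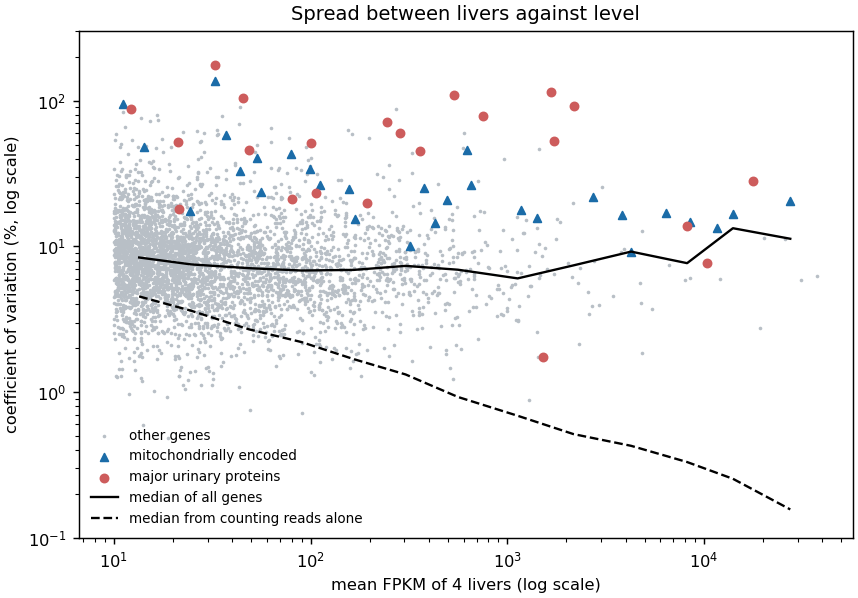
CV between the 4 livers (y axis, %, log scale) against mean FPKM (x axis, log scale) for 4123 genes. The solid line is the median over genes in bins of level and the dashed line the median that counting reads would give. Mup genes (red circles) have a median CV of 51.7% and mitochondrially encoded genes (blue triangles) of 21.7%, against 7.61% for all genes.

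In the deposited scaling the lowest CV of the genes above 100 FPKM was that of Ces1c, a carboxylesterase that hydrolyses esters in plasma, at 1295, 1284, 1281 and 1306 FPKM, a CV of 0.882%. Itm2b, a membrane protein gene, followed with 525, 535, 525 and 537 FPKM and 1.23%. That order belongs to the deposited scaling: with equal FPKM totals the CVs of Ces1c and Itm2b were 3.63% and 2.77%, above the 1.42% of Tle5. Also among the 10 lowest CVs as deposited were Hsd17b4 and Acadl of fatty acid oxidation, Mpst of sulphur metabolism, Trap1, a mitochondrial chaperone, and Epn1, Ndrg2, Selenow and Tle5, with CVs up to 1.64%. By family, fatty acid oxidation and ketone bodies had a median CV of 4.89% over 48 genes, urea cycle and amino acid breakdown 7.14% over 63 and cytochromes P450 10.8% over 41. The widest were the Mup genes, with 14 of 22 past 2-fold, and mitochondrially encoded genes, with 9 of 29.

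Major urinary proteins are lipocalins that mice, males above all, secrete from the liver and excrete in urine as pheromone carriers. Their genes form a cluster of near-copies on chromosome 4. The sum of all 49 Mup genes was 42891, 50355, 46077 and 46009 FPKM in livers 1 to 4, a CV of 6.62%. Many members ranged more widely. Mup19 read 2987, 11.6, 37.6 and 3676 FPKM, high in livers 1 and 4 and low in livers 2 and 3. Mup22 read 175, 1753, 5001 and 1806 FPKM, lowest in liver 1 and highest in liver 3. Mup16 was level in 3 livers and high in liver 3, at 242, 244, 1426 and 243 FPKM, and Mup11 was high only in liver 4, at 2.87, 2.55, 6.76 and 118 FPKM.

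Other members ranged less in the same libraries. Mup21, like Cdkn1c, Peg3, Hp, Fos and Tfr2 elsewhere in the text, was named after its values were seen. It stood at 1519, 1557, 1493 and 1525 FPKM, a CV of 1.75%, and Mup3 at 9331, 11158, 10849 and 10341 FPKM. Both have letters of their own in the reference annotation: 95.5% and 97.8% of the 100-base windows of their transcripts in GENCODE vM21 occur in no other Mup gene. The Mup sequences of the FVB strain were not examined, so these shares describe the reference only. For Mup19 and Mup22 that share was 0%, for Mup15 2.66% and for Mup12, which read 17686, 24322, 12223 and 16619 FPKM, 22.5%. Over the 22 members with a mean of at least 10 FPKM, the median share of unique windows was 23.8% in the 14 that spanned 2-fold and 45.9% in the 8 that did not. The groups overlapped, at 0% to 54.8% and 22.5% to 97.8%. Members went both ways: Mup7, at 23.9%, spanned 1.41-fold and Mup-ps4, at 54.8%, spanned 10.6-fold. Reads from near-identical copies can be divided between genes in more than 1 way, and the labels do not name the counter. Among these 22 members, the levels of genes that share many windows with other Mup genes are therefore uncertain. How far the division of reads bears on their ranges was not tested. The family sum depends on the division less directly, since FPKM divide by the length of the copy that a read is given to. The upstream sequences printed above show the same likeness between Mup15 and Mup19.

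**Figure D4:**
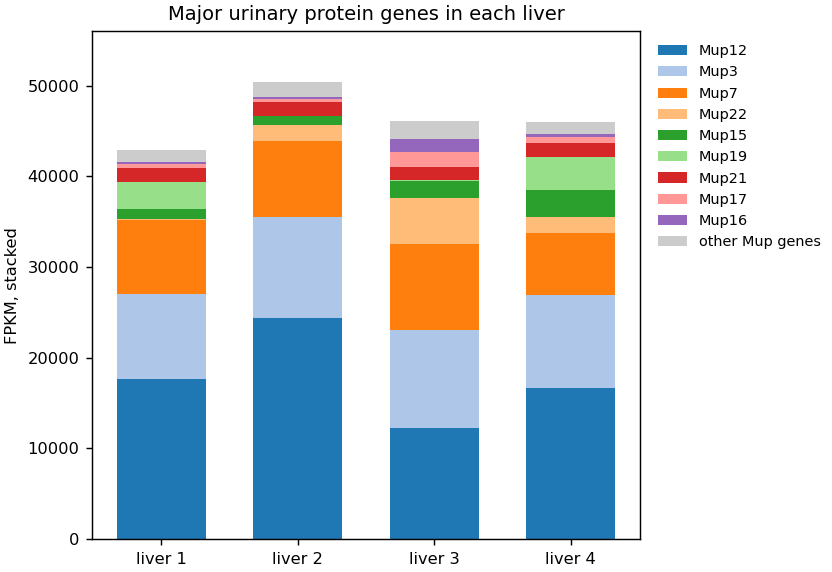
FPKM of the 9 most abundant Mup genes and of all others together (y axis, stacked) in each liver (x axis). The totals lie between 42891 and 50355 FPKM, while Mup19 is visible in livers 1 and 4 only and Mup22 is largest in liver 3.

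A mitochondrial gene showed a comparable range. mt-Atp8, a small subunit of ATP synthase, read 99.2, 16.4, 11.3 and 4.45 FPKM, highest in liver 1. It overlaps mt-Atp6 on the mitochondrial genome, so reads of the overlap may be given to either gene or to neither. Its level is therefore uncertain, and whether the overlap bears on its range was not tested. The values of mt-Atp6 were 402, 677, 415 and 1017 FPKM. Haemoglobin gave a pair of copies: Hba-a1 and Hba-a2 encode the same chain, so that reads may be given to either. The level of Hba-a2, 14, 0.167, 0.313 and 7.49 FPKM, is uncertain too. The mitochondrial copies on chromosome 1 differed in their order of livers as well, with Gm10925 at 1131, 564, 345 and 382 FPKM and Gm29216 at 281, 945, 653 and 493 FPKM.

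After several Mup and mitochondrially encoded genes, the largest CVs were those of Afp and H19, 90.3% and 87.9%. H19 is an imprinted long non-coding RNA that is abundant in fetal liver and then silenced, and Afp, a fetal paralog of albumin, follows the same course. H19 read 594, 41.7, 306 and 150.2 FPKM in livers 1 to 4. Afp read 97.7, 7.08, 48 and 22.8 FPKM. Both were highest in liver 1 and lowest in liver 2, 14.3 and 13.8 times apart, with livers 3 and 4 between them. Igf2, the imprinted growth factor next to H19, showed the same order at a low level, 3.01, 0.156, 1.3 and 0.595 FPKM, as did the cell cycle inhibitor Cdkn1c (6.95, 2.08, 4 and 2.95 FPKM) and, within a narrower range, Peg3 (1.38, 1.02, 1.15 and 1.2 FPKM). All 5 of the 12 imprinted and fetal genes with a mean of at least 1 FPKM had liver 1 highest and liver 2 lowest, an order that 10.1% of all 10960 genes at that level had, or 16.2% with equal FPKM totals. The weaker members mostly did not share it: of the 10 with a mean of at least 0.1 FPKM 6 had that order, against 10.04% of all genes.

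Genes of mitosis followed it. Cdc20, which switches on the ubiquitin ligase of anaphase, read 6.49, 1.37, 3.69 and 2.13 FPKM, Ube2c, a ubiquitin-conjugating enzyme that works with that ligase, 5.16, 0.815, 2.29 and 1.66 FPKM, and Plk1, a mitotic kinase, 4.19, 0.253, 0.998 and 1.03 FPKM. In each of them liver 1 was highest and liver 2 lowest. The 20 mitosis genes of the list summed to 41.8, 6.85, 19.1 and 13.1 FPKM, and all 8 with a mean of at least 1 FPKM had liver 1 highest and liver 2 lowest. None averaged over 4 FPKM. Of the 19 with a mean of at least 0.1 FPKM 18 had that order, which 10.04% of all genes at that level had, and the exception was Kif20a. The serine-synthesis gene Phgdh (23.3, 2.02, 13.5 and 5.93 FPKM) and the asparagine synthetase Asns (6.31, 0.611, 3.48 and 1.74 FPKM) had the same order, as had Slc25a4, an exchanger of ATP in mitochondria (20.8, 3.51, 13.5 and 7.57 FPKM), and Cyba, a subunit of the phagocyte oxidase (52.4, 12.4, 27.6 and 21.8 FPKM), both picked after their values were seen. The unfolded protein and integrated stress response list mostly did not share it. Of its 18 genes with a mean of at least 1 FPKM, 1 had liver 1 highest and liver 2 lowest, against 10.1% of all genes at that level.

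Blood genes moved in part with this order. The haemoglobin genes Hba-a1 and Hbb-bs read 999.8, 558, 624 and 650.1 FPKM and 618, 349.8, 408 and 404 FPKM, and the 5 red cell genes of the list summed to 1786, 1001, 1134 and 1163 FPKM, with liver 1 highest for all 5 and liver 2 lowest for 4. Of all 10960 genes with a mean of at least 1 FPKM, liver 1 was highest in 2452. Both held in 10.1% of all genes at that level, or 16.2% with equal FPKM totals. Hba-a1 and Hba-a2 are copies, so the 5 genes are not separate readings. The neutrophil genes S100a8, S100a9, Elane and Mpo summed to 3.93, 0.748, 1.35 and 2.54 FPKM, the lymphocyte genes to 1.25, 0.408, 0.338 and 0.968 FPKM and the mesothelial genes Upk3b, Msln and Wt1 to 3.55, 1.18, 1.27 and 2.63 FPKM, all sums highest in liver 1. These sums rest on few reads. Of members with a mean of at least 0.1 FPKM, liver 1 was highest in 2 of 2 neutrophil, 1 of 2 lymphocyte and 2 of 2 mesothelial genes. Over all 17323 genes at that level it was highest in 4140.  The part of blood or surface cells in the ranges of H19, Afp and the mitosis genes was not tested.

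**Figure D5:**
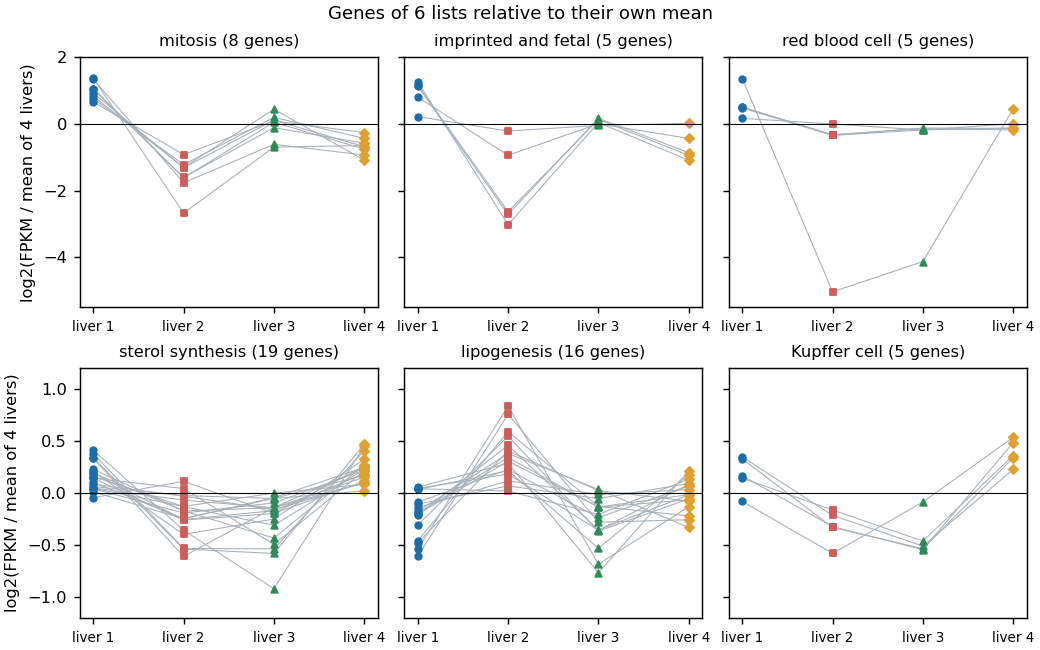
Level of each gene relative to its own mean over the 4 livers (y axis, log2; 0 is the mean) in each liver (x axis), for genes of 6 lists with a mean of at least 1 FPKM, or 10 FPKM for sterol synthesis and lipogenesis. Points are genes, thin lines join the same gene, and the lower row has a narrower scale. Mitosis and imprinted genes are highest in liver 1 and lowest in liver 2, 18 of 19 sterol synthesis genes are highest in livers 1 and 4, 14 of 16 lipogenesis genes in liver 2, and the red blood cell gene far below the others in livers 2 and 3 is Hba-a2.

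A different order held for cholesterol synthesis, which hepatocytes raise under the factor SREBP2 when sterol is short. Of the 19 genes of the pathway list with a mean of at least 10 FPKM, 18 had livers 1 and 4 as the 2 highest, an order that 15.5% of all genes at that level had, or 27.97% with equal FPKM totals. Hmgcs1, an early enzyme, read 129, 68.9, 68.7 and 132 FPKM. Mvd, a later enzyme, read 36.8, 21.6, 14.7 and 37.8 FPKM. Both genes thus had livers 1 and 4 as the 2 highest. Insig1, which holds the pathway back, varied less, at 161, 149.8, 103 and 169 FPKM. Nr0b2, the bile acid-induced repressor SHP, was high in the same livers, at 78.5, 28.8, 31.8 and 73.6 FPKM.

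Kupffer cell genes had that order too. Clec4f read 56.6, 45.8, 37.3 and 65.7 FPKM and Cd5l 41.3, 26.2, 22.7 and 41.6 FPKM, and in all 5 genes of the list livers 1 and 4 were the 2 highest, against 16.5% of the genes with a mean of at least 1 FPKM, or 25.98% with equal FPKM totals. Interferon-stimulated genes, which both hepatocytes and macrophages express, had it in 11 of 17, led by Igtp at 44.9, 29.7, 37.9 and 45 FPKM. Stellate cell genes had liver 4 highest in 4 of 5 and endothelial genes in 3 of 4, against 21.2% of genes at that level. Whether the share of Kupffer cells bears on the sterol genes was not tested.

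Fat synthesis was highest in liver 2. Of 16 lipogenesis genes with a mean of at least 10 FPKM, 14 had liver 2 highest, against 31.5% of all genes. Scd1, the desaturase that makes oleate, read 953, 2449, 1195 and 1215 FPKM, and Elovl6, which lengthens palmitate, 19, 49.1, 17.2 and 25.2 FPKM. In both genes liver 2 lay above the other 3 livers, which lay nearer to each other. Thrsp, a carbohydrate-induced regulator and the second most abundant of the list, varied less, at 1172, 1399, 1278 and 1321 FPKM. Gluconeogenesis and fasting genes were not low in that liver: Pck1 read 938, 1323, 1199 and 1007 FPKM, and 6 of 12 members of that list had liver 2 highest.

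Acute phase genes, which the liver raises in inflammation, were lowest in liver 2 in 11 of 16, against 26.1% of all genes, and highest in liver 3 in 10 of 16, against 30.1%. With equal FPKM totals liver 2 was lowest in 14 of 16, against 40.8%. Hp, the haemoglobin scavenger haptoglobin, read 3505, 1932, 3077 and 3634 FPKM, and the iron-binding Lcn2 4.88, 0.68, 3.71 and 5.36 FPKM. Saa1, a serum amyloid gene chosen after its values were seen, read 56.6, 18, 66.6 and 66.5 FPKM. In these 3 genes liver 2 lay below each of the others. Hamp, the most abundant of the list, did not share that low, at 4022, 5169, 5461 and 4771 FPKM, but was lowest in liver 1, and its close copy Hamp2 read 14.6, 42.1, 21 and 11.9 FPKM, highest in liver 2.

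Heat shock genes were mostly highest in liver 3, in 10 of the 12 with a mean of at least 1 FPKM, against 26.7% of genes at that level. Hspa1b, an inducible HSP70 gene, read 8.35, 17, 30.9 and 13.8 FPKM. Single genes of other lists had a high value there too. By list, liver 3 was highest in 4 of 12 fasting genes and in 5 of 12 bile acid synthesis genes, against 30.1% of genes with a mean of at least 10 FPKM. The metallothioneins Mt1 and Mt2, which bind zinc and respond to metals and glucocorticoids, read 142, 62.3, 292 and 152 FPKM and 11.9, 4.17, 28.4 and 10.2 FPKM. Lpin1, a phosphatidate phosphatase and coactivator raised in fasting, read 16.8, 15.7, 50.8 and 23.1 FPKM, Igfbp1, an insulin-repressed binding protein, 18.7, 26.5, 41.7 and 19.7 FPKM, and Cyp7a1, the first enzyme of bile acid synthesis, 57.5, 66.1, 111 and 68 FPKM. Liver 3 was highest for each of them. Alas1, which starts haem synthesis and was also chosen after its values were seen, read 93, 106, 302 and 122 FPKM, and Selenbp2, a male-biased gene, 24.8, 18.9, 62.2 and 28.3 FPKM. For both, livers 1, 2 and 4 lay close together below liver 3.

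Clock genes bear on the time at which tissue was taken, which the labels do not give. Dbp, a factor whose level swings over the day, read 92.2, 77.2, 49.6 and 90.5 FPKM, and Nr1d1, the repressor REV-ERB alpha, 26.1, 17.1, 11.4 and 22.3 FPKM. Both were lowest in liver 3. Ciart, a repressor and the most variable of the list with a mean of at least 1 FPKM, read 7.37, 3.85, 3.84 and 6.63 FPKM. Arntl, which encodes the activator BMAL1 that Nr1d1 represses, was named after its values were seen and was low in all livers, at 0.193, 0.415, 0.431 and 0.106 FPKM. The 19 clock genes found summed to 326, 330.0, 276 and 330.4 FPKM. Of the 18 with a mean of at least 0.1 FPKM, liver 3 was lowest in 7 and liver 1 in 7. Over all 17323 genes at that level these counts were 4418 and 4125. Immediate early genes, which respond within minutes to handling of tissue, were even for Ier2 (55.3 ± 1.86 FPKM) and Jund (39.8 ± 2.29 FPKM), the most abundant, whereas Fos averaged 0.45 ± 0.186 FPKM. Myc was the most variable with a mean of at least 1 FPKM, at 2.51, 15.1, 8.08 and 3.88 FPKM, highest in liver 2.

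Genes of the lobule's zones were read by list. Pericentral genes, led by Cyp2e1 and Cyp2c29, had a median CV of 7.03% over 12 genes, beside 7.61% for all genes. Periportal genes, led by Ass1 and Pck1, had 10.4% over 16 genes, with liver 1 lowest in 11 (32.8% of all genes). Sex-linked and sex-biased genes were read in the absence of a sex label. The Y-linked genes Eif2s3y and Ddx3y read 13.1, 15.6, 15 and 13.8 FPKM and 12.5, 14.1, 14.4 and 15.2 FPKM, whereas Xist, the RNA of the inactive X chromosome, averaged 0.00884 FPKM. Cyp2d9 and Gstp1, which are male-biased in mouse liver, averaged 992 ± 35.9 FPKM and 404 ± 8.28 FPKM. Of 16 female-biased genes 3 averaged 1 FPKM or more, and the list summed to 10.7, 25.7, 12.5 and 12.1 FPKM. Liver 2 was highest, chiefly through Acot3 (3.06, 8.69, 2.1 and 2.81 FPKM) and Cyp4a10 (3.12, 8.3, 4.21 and 2.91 FPKM), both also targets of the fatty acid receptor PPAR alpha. Cyp2b10, a gene induced by drugs through the receptor CAR, was high in livers 2 and 3, at 3.36, 29.1, 26.3 and 7.25 FPKM.

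Bile acid genes were led by Scp2, a sterol carrier, and Slc27a5, a bile acid CoA ligase, at 1418 ± 36.5 FPKM and 571 ± 36.9 FPKM. Cyp8b1, which sets the proportion of cholic acid, read 205, 381, 307 and 228 FPKM and was highest in liver 2 and lowest in liver 1. Transporters of bile acids and drugs were lowest in liver 3 in 9 of 13, against 24.7% of all genes. Slc10a1, the uptake carrier for bile acids, averaged 439.8 ± 32 FPKM, and Slco1b2, an uptake carrier for drugs, 321 ± 19.3 FPKM.

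The remaining lists cover stress, iron and matrix. Endoplasmic reticulum stress genes were led by Herpud1 (244 ± 24 FPKM) and the chaperone Hspa5 (225 ± 20.5 FPKM), with a median CV of 11.1% over the 13 genes with a mean of at least 10 FPKM, beside 7.61% for all genes. Genes of iron sensing, such as Tfr2 (188 ± 13.6 FPKM), summed to 16177, 17203, 16645 and 17109.7 FPKM, and 1 of 14, Hamp2, spanned 2-fold. Collagen and matrix genes summed to 336, 335, 328 and 364 FPKM, most of it Fn1, the gene of plasma fibronectin (187 ± 5.38 FPKM), while Col1a1, the fibrillar collagen that rises in scars, averaged 1.83 ± 0.52 FPKM. Hypoxia genes summed to 177, 203, 194 and 179.6 FPKM, led by Bnip3 and Vegfa. Targets of p53 with cell cycle inhibitors summed to 66, 62.1, 60.4 and 61.2 FPKM, led by Bax (19.6 ± 1.03 FPKM). Glucocorticoid-induced genes were led by Tat (808 ± 57.7 FPKM), and immunoglobulin genes summed to 22.8, 18.6, 21.3 and 24.5 FPKM, with Igkc at 15 ± 2.57 FPKM.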

How the data were processed

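RNA from 4 normal livers (n = 4, grouped by sample titles) was analysed out of 10 libraries. Per the labels' protocols, total RNA was taken with a column kit (Quick-RNA Miniprep), and either polyA capture or rRNA removal came next. The table the authors deposited holds FPKM for 56748 genes, with a column for each library according to its header. The submitters' processing notes name FastQC 0.11.7 and GRCm38 without their use. Aligner, counter and annotation: not given in the sources used here.

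FPKM multiplied by the deposited gene length gave whole reads for 100% of values within 0.02 reads, so that a single read on a gene of 1 kb equalled 0.0854 to 0.1135 FPKM. The divisor behind the FPKM was 0.629 to 0.668 of the summed reads, so absolute FPKM run above those of the usual definition, whereas shares are unaffected. Abundance was the share of summed FPKM, with shares of reads as the alternative. Spread was the CV over 4 livers for genes with a mean of at least 10 FPKM, beside the CV expected from counting reads, which covers counting error only. With 1 group no test was made. Orders of livers in gene lists were set beside the share of all genes at the same level that have that order. Genes were put in 23 families by symbol, and 37 lists and 29 isoenzyme sets were described. Named genes were the 25 most abundant, up to 6 per family, isoenzymes of at least 1 FPKM, the 15 most and 10 least variable, the 2 most abundant and 2 most variable of each list with its markers at 0, and the 10 most abundant non-coding genes. Not every gene the rule took is printed, and some are not reported here. Members and lists were chosen with earlier results of these data known. Promoters were matched by symbol to RefSeq on GRCm38.p6, with 71 of the 100 most abundant nuclear coding genes found, and Mup transcripts were compared in GENCODE vM21. The scripts, in Python 3.11.15 with numpy 2.4.6 and pandas 2.3.3, were tested on simulated data. Alternatives were other thresholds, 2 other scalings, FPKM + 1, reads in place of FPKM, omission of mitochondrially encoded genes and omission of each liver.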

Additional observations from a re-analysis of the deposited data

Results flagged for a closer look

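In each family, biotype, list and gene described by liver, a single liver was set apart when its gap to the next liver took up more of the whole range of the 4 livers than Dixon's 95% critical value allows. By chance about 1 in 20 such sets are picked out. This was the case for 3 of 24 families (the remaining genes counted as one), 0 of 9 biotypes, 2 of 37 lists and 6 of 92 genes, and for 222 of all 4123 genes with a mean of at least 10 FPKM (5.38%). The share of genes is thus near what chance gives.

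Liver 3 had the lowest share of albumin and its paralogs, 5.55% against 6.07% to 6.16% in the others. Liver 4 had the highest share of alcohol, aldehyde and steroid dehydrogenases, 1.42% against 1.37% to 1.38%, but with mitochondrially encoded genes left out of the total liver 2 was highest, at 1.60%, and liver 4 next, at 1.58%. Liver 2 had the highest share of glucose, fructose and glycogen genes, 1.35% against 1.14% to 1.17%. The clock genes summed to 276 FPKM in liver 3 and to 326 to 330.4 FPKM in the other livers. Much of that gap lay in Dbp, at 49.6 FPKM in liver 3 against 77.2 to 92.2 FPKM. Gene by gene liver 3 was lowest in 7 of the 18 clock genes with a mean of at least 0.1 FPKM, and liver 1 in 7, against 4418 and 4125 of all 17323 genes.

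Female-biased genes summed to 25.7 FPKM in liver 2 against 10.7 to 12.5 FPKM. Among them Acot3 read 8.69 FPKM in liver 2 against 2.10 to 3.06 FPKM, and Cyp2a4, a testosterone hydroxylase with a near-identical copy in Cyp2a5, read 2.31 FPKM in liver 2 against 0.197 to 0.522 FPKM. Alas1 read 302 FPKM in liver 3 against 93.0 to 122 FPKM. Mup16 read 1426 FPKM in liver 3 against 242 to 244 FPKM, and Mup11 read 118 FPKM in liver 4 against 2.55 to 6.76 FPKM. For mt-Atp8 liver 1 read 99.2 FPKM and the others 4.45 to 16.4 FPKM. The last 3 genes share sequence with near copies or an overlapping gene.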

How the results depend on the processing

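The number of genes holding 50% of the signal was 45, and 140 counted in reads, 63 with mitochondrially encoded genes left out and 43 to 47 when each liver was left out in turn. The 10 most abundant genes held 30.26%, 21.8% counted in reads, and 29.6% to 30.7% with a liver left out. Genes detected in all 4 livers numbered 10027 at a minimum of 1 FPKM, 14194 at 0.1 FPKM, 3810 at 10 FPKM, and 10153 to 10188 with a liver left out. The median CV of 7.61% became 10.6% at a mean of at least 1 FPKM, 6.90% at 100 FPKM and 6.63% to 8.0% with a liver left out. The 116 genes spanning 2-fold became 1084 at a mean of at least 1 FPKM and 25 at 100 FPKM, as more or fewer genes entered, and 73 to 102 with a liver left out. With equal FPKM totals there were 119, of which 111 were among the 116, with the median of ratios 116, and with FPKM + 1 104. Counted in reads, 22 of 24 family shares and 7 of 8 biotype shares moved by more than 1 SD. Leaving out mitochondrially encoded genes moved 23 of 23 and 4 of 6, but the smaller total by itself raises the share of every remaining family. Leaving out 1 of 4 livers cannot move a mean by 1 SD, so this rule says nothing about that omission. The orders of livers recomputed under scalings added after the data were seen moved by at most 3 genes each, while the share of all genes with the order moved more: with equal totals lipogenesis had liver 2 highest in 13 of 16 (all genes 18.3%), acute phase liver 2 lowest in 14 of 16 (40.8%) and periportal liver 1 lowest in 9 of 16 (18.9%). Livers 1 and 4 were then highest in the same number of genes against 27.97% of all genes for sterol synthesis and 25.98% for Kupffer cells, and liver 1 highest with liver 2 lowest in mitosis and imprinted genes of at least 1 FPKM against 16.2%. No paired analysis was possible because the 4 livers form 1 group and no test was made. A depth of 13.59 to 17.53 M reads gives a median counting CV of 3.40% at 10 FPKM or more, and genes under 1 FPKM rest on few reads.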
